A study of Homo sapiens with 6 samples.

Results

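TLL1 and 6 genes that act with it were followed in H9, an established line of human embryonic stem cells, at the end of day 9 of a directed differentiation to nephron progenitor cells. The 7 genes, out of 60107 in the table, are the tolloid proteases TLL1, TLL2 and BMP1, the procollagen C-proteinase enhancers PCOLCE and PCOLCE2, and the chordin-related genes CHRDL1 and TWSG1. TLL1 was picked because it was much higher without glutamine in these same libraries, at low counts, so its own contrast is described here without a test. The other 6 were taken for their function. All 7 passed the filter on low counts, which kept 22613 genes. TLL1 could pass it only through the libraries without glutamine, where its counts are high enough.

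The group with glutamine was grown in complete medium and the group without was deprived of glutamine from day 0 through day 9. No other treatment or genetic change separates the groups in the labels. Each group holds 3 libraries, made from total RNA with a stranded mRNA kit and read from single ends. Nothing in the labels says whether the replicates came from separate cultures, so p-values measure only the spread between these libraries. All results come from 1 cell line.

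Tolloid proteases are secreted zinc metalloproteinases of the astacin family. Some of them, but not all, cut the C-terminal propeptides from fibrillar procollagens, so that collagen fibrils can form. Some process lysyl oxidase and several small proteoglycans. Some also cut chordin, a protein that holds bone morphogenetic proteins (BMPs) away from their receptors, and so release the ligand. TLL1 is best known from the heart, where mice that lack it fail to form a complete septum. PCOLCE and PCOLCE2 bind procollagen and speed its cleavage, TWSG1 binds chordin and BMPs and can promote chordin cleavage, and CHRDL1 is a chordin-like BMP antagonist.

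The DNA just before the start of TLL1 is poorer in G and C than that of the other 5 genes matched to a RefSeq promoter, with BMP1 not matched. The stretches of TLL1, TLL2 and CHRDL1 are shown because they belong to the tolloid protease chosen for its difference, to the protease nearest to it in expression, and to the gene with the most negative log2 fold change among the 7. They are RefSeq sequences on GRCh38.p14, 5′ to 3′ on the strand of the gene, and end at the base before the RefSeq start. The CHRDL1 stretch ends 2 bases earlier, where the gene begins in GENCODE 29. TLL1 is at chr4:165872987-165873236 on the plus strand, TLL2 at chr10:96513927-96514176 on the minus strand and CHRDL1 at chrX:110795820-110796067 on the minus strand. Capitals mark matches to any of the 5 motifs searched.
TLL1: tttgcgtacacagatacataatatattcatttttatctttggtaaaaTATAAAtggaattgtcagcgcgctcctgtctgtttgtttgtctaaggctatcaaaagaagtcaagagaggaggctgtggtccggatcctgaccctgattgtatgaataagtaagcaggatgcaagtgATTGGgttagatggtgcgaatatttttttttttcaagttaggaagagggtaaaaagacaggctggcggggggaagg
TLL2: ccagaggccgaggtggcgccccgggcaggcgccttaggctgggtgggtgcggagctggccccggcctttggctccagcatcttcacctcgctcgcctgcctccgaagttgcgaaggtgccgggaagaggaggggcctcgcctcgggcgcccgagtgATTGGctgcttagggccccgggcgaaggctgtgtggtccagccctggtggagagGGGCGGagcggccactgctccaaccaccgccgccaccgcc
CHRDL1: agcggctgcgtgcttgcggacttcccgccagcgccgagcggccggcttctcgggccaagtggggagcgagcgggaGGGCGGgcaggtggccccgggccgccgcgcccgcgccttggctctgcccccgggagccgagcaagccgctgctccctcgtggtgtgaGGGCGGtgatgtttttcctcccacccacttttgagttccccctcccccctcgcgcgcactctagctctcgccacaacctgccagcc

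Over the 250 bases before the RefSeq start, G and C made up 40.4% in TLL1, against 72.8% in TLL2 and 73.2% in CHRDL1. Of 35116 promoters of the same length, with a median of 58.0%, 13.4% had a lower GC content than TLL1. TLL1 held 6 CpG pairs, TLL2 held 22 and CHRDL1 held 27, where the median promoter held 11. The motifs were searched on both strands as the TATA box (TATAAA), the CCAAT box (CCAAT), the GC box (GGGCGG), the E-box (CACGTG) and the amino acid response element (TGATGNAAN). TLL1 held a TATA box that begins 203 bases before the start and a CCAAT box that begins 76 bases before it. These motifs occur in 10.7% and 32.0% of all promoters. TLL2 held 1 CCAAT box and 1 GC box, and CHRDL1 held 2 GC boxes, a motif found in 42.6% of promoters. The amino acid response element, found in 3.13% of promoters, and the E-box, found in 6.34%, had no match in these 3 windows.

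The libraries held 78220507 to 84746566 counts. Replicate 1 with glutamine stood apart from its group: in log2 CPM (counts scaled to a common library size) it had a Pearson's r of 0.9758 and 0.9762 with replicates 2 and 3, but of 0.9908 to 0.9927 with the libraries without glutamine. These r are taken over genes and so describe likeness only. Values without that library are therefore given beside the results for the members and for the genes named from the pathway lists whose call it changed. Of 10 markers of nephron progenitors and intermediate mesoderm, all 10 had at least 10 counts in some library, but HOXD11 had only 0 and 1 counts in replicates 2 and 3 with glutamine. Their summed level was 795 to 1610 CPM with glutamine, where replicate 1 was the highest, and 1500 to 2010 CPM without, with PAX8 the largest part. The 10 did not go one way: 3 were higher and 1, EYA1, was lower with no overlap between groups, and 6 overlapped. Of all genes tested, 17.3% were higher and 16.9% lower with no overlap. The 3 higher were LHX1, HOXD11 and GDNF, at log2 fold changes of 2.07, 4.67 and 1.37. OSR1, SIX2 and EYA1 had log2 fold changes of -0.87, -1.48 and -0.48. EdgeR with all libraries called 0 of the 10. Without replicate 1 with glutamine it called all 10, 7 higher and 3 lower, against 41.3% of all genes in that fit. Of 5 markers of pluripotent cells, NANOG and TDGF1 had at most 2 counts in a library and POU5F1 at most 13. DPPA4 and ZFP42 were present and higher without glutamine with no overlap between groups, as were 17.3% of all genes tested. DPPA4 had 113 to 184 CPM with and 212 to 269 CPM without. ZFP42 had 7.18 to 7.41 CPM with and 8.03 to 11.8 CPM without. With all libraries edgeR called neither (adjusted p 0.0724 and 0.168). Without replicate 1 with glutamine it called DPPA4 (adjusted p 5.13e-05) and not ZFP42 (adjusted p 0.0735). In these bulk libraries, fewer cells of a type and less RNA per cell cannot be told apart.

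TLL1 (ENSG00000038295) lies at chr4:165873258-166103895 on the plus strand in GENCODE 29 on GRCh38. It had 9, 6 and 6 counts in replicates 1, 2 and 3 with glutamine and 73, 99 and 103 counts in replicates 1, 2 and 3 without, the order in which values of single libraries are given throughout. Every library without glutamine lay far above every library with it, and replicate 1 with glutamine stayed with its own group. Summed over the group, 21 counts with glutamine (exact 95% Poisson interval 13.0 to 32.1) stood against 275 without (243 to 309), where the intervals cover counting error only. On the CPM scale the means were 0.088 ± 0.0198 with glutamine and 1.14 ± 0.254 without (SD, n = 3), a ratio of 13.0. The log2 fold change was 3.66 (SE 0.34) with all libraries and 3.86 (SE 0.41) with replicate 1 with glutamine left out. As TLL1 was chosen on this contrast, the values are a description.

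TLL2 (ENSG00000095587) encodes the second tolloid-like protease and lies at chr10:96364606-96513918, minus strand. It had 2.26, 0.294 and 0.255 CPM with glutamine and 2.87, 2.96 and 2.43 CPM without. The groups did not overlap, but replicate 1 with glutamine lay close to the libraries without and away from the other 2 of its group. The difference did not pass the test (log2 fold change 1.54, SE 0.67, edgeR adjusted p 0.176). With replicate 1 with glutamine left out it passed, at a log2 fold change of 3.32 (SE 0.23) and an edgeR adjusted p of 4.6e-06, so leaving out that 1 library changed both the size and the call.

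BMP1 (ENSG00000168487), at chr8:22164736-22212326, plus strand, is the founding member of the family and encodes the main procollagen C-proteinase. It had 44.2, 27.7 and 27.0 CPM with glutamine and 43.9, 47.8 and 49.1 CPM without. Replicate 1 with glutamine lay inside the range of the other group, and the remaining libraries with glutamine lay below it. With all libraries BMP1 was not called (log2 fold change 0.51, SE 0.19, edgeR adjusted p 0.136). Without that library it was (0.78, SE 0.08, edgeR adjusted p 5.11e-05). A noncoding gene on the same strand, AC105206.1, shares 461 exon bases with BMP1 and had 3 to 6 counts in a library.

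**Figure D1:**
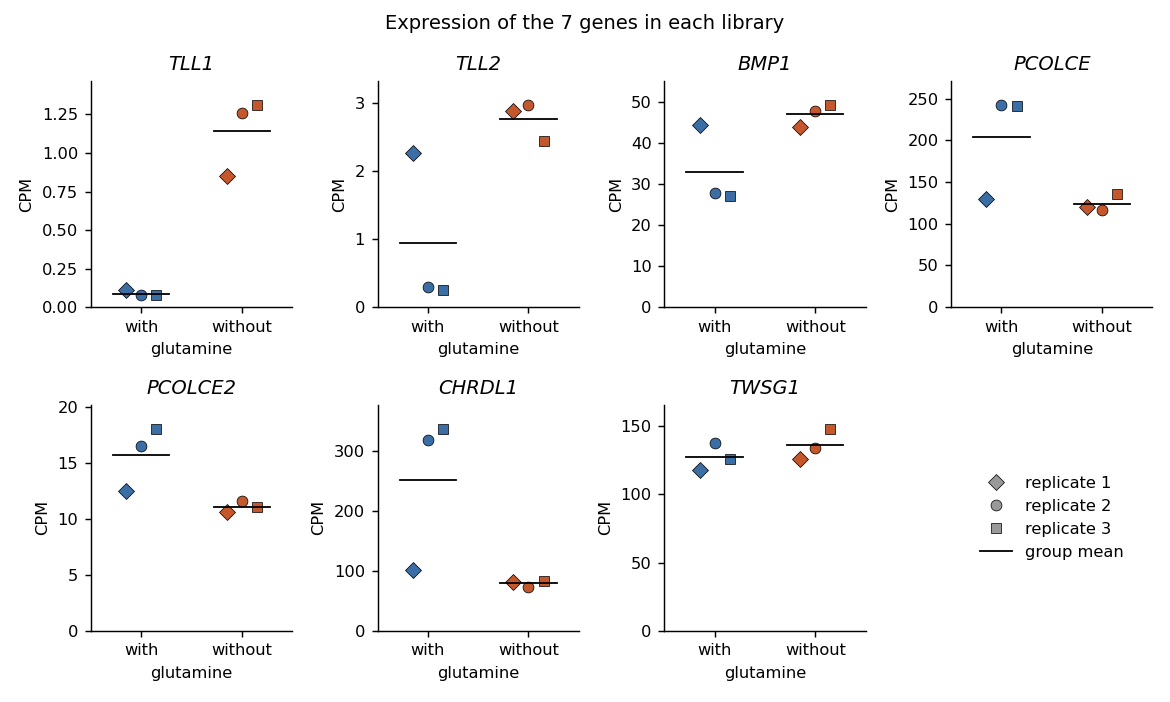
Expression of the 7 genes in each library in CPM, on linear axes that start at 0, with a bar at the mean of each group of 3 libraries. TLL1, chosen on this contrast, is low in all 3 libraries with glutamine, at 0.0764 to 0.111 CPM. Replicate 1 with glutamine (diamond) lies near the libraries without glutamine in TLL2, BMP1, PCOLCE and CHRDL1.

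Among the 3 proteases, BMP1 accounted for nearly all of the expression per length of exon in every library. TLL1 made up 0.238%, 0.272% and 0.277% of the summed counts per kilobase in replicates 1, 2 and 3 with glutamine and 1.78%, 2.42% and 2.47% without. These shares did not overlap between groups, and the means were 0.262% ± 0.0212 with and 2.22% ± 0.385 without (SD, n = 3), a difference that carries no test because TLL1 was chosen on it. TLL2 made up 4.46%, 0.961% and 0.853% with glutamine and 5.55%, 5.24% and 4.23% without, so replicate 1 with glutamine lay inside the range of the other group. BMP1 made up 97.7% ± 2.05 with glutamine and 92.8% ± 0.503 without (SD, n = 3). TLL2 had 20.3 counts for each count of TLL1 in replicate 1 with glutamine, against 1.85 to 3.83 in the other 5 libraries. The 2 tolloid-like genes thus parted in that library. TLL1 was chosen on a contrast that includes it, which favoured a low TLL1 count there, so this ratio is a description with no test.

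PCOLCE (ENSG00000106333), at chr7:100602177-100608175, plus strand, had 130, 242 and 241 CPM with glutamine and 120, 117 and 135 CPM without. Replicate 1 with glutamine again lay inside the range of the libraries without, and the other 2 lay far above it. PCOLCE was not called with all libraries (log2 fold change -0.72, SE 0.23, edgeR adjusted p 0.101) and was called without that one (-0.96, SE 0.08, edgeR adjusted p 1.08e-05). PCOLCE-AS1, an antisense gene that shares 585 exon bases with PCOLCE, had 75 to 138 counts in a library against 9184 to 18940 for PCOLCE. The strand setting of the counting is not given in the sources used here, so reads from the shared bases could go to either gene.

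PCOLCE2 (ENSG00000163710), at chr3:142815922-142889206, minus strand, had 12.5, 16.5 and 18.0 CPM with glutamine and 10.6, 11.6 and 11 CPM without. All 3 libraries without glutamine were below all 3 with it, and replicate 1 was the lowest of its group. The difference was not called with all libraries (log2 fold change -0.50, SE 0.14, edgeR adjusted p 0.0879) and was called with replicate 1 left out (-0.64, SE 0.09, edgeR adjusted p 0.000362).

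CHRDL1 (ENSG00000101938), at chrX:110673856-110795819, minus strand, had 101, 318 and 337 CPM with glutamine and 81.3, 73.4 and 83.0 CPM without. The groups did not overlap, and replicate 1 with glutamine lay just above the libraries without. CHRDL1 missed the threshold with all libraries (log2 fold change -1.67, SE 0.41, edgeR adjusted p 0.074) and passed it with that library left out (-2.04, SE 0.07, edgeR adjusted p 1.03e-07). TWSG1 (ENSG00000128791), at chr18:9334767-9402420, plus strand, had 118, 138 and 126 CPM with glutamine and 126, 134 and 148 CPM without. Its groups overlapped and differed by less than the spread between libraries (log2 fold change 0.09, SE 0.09, edgeR adjusted p 0.506).

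Of the 6 members other than TLL1, 0 had an edgeR adjusted p under 0.05, where 0.00442% of all genes tested did, 1 of 22613. At an unadjusted p under 0.05 there were 4 of 6, BMP1 higher and PCOLCE, PCOLCE2 and CHRDL1 lower, where 29.7% of all genes had such a p, 14.7% higher and 15% lower. For 3 of the 6 the groups had no overlap, TLL2 higher and PCOLCE2 and CHRDL1 lower, against 34.2% of all genes, 17.3% higher and 16.9% lower. DESeq2 called 3, PCOLCE, PCOLCE2 and CHRDL1, all lower, against 14% of the genes it adjusted over, 7.54% higher and 6.44% lower. With replicate 1 with glutamine left out edgeR called 5, TLL2 and BMP1 higher and PCOLCE, PCOLCE2 and CHRDL1 lower, where it called 41.3% of all genes, 22.3% higher and 19% lower. Over the 6 the median log2 fold change was -0.21, against 0 over all genes.

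**Figure D2:**
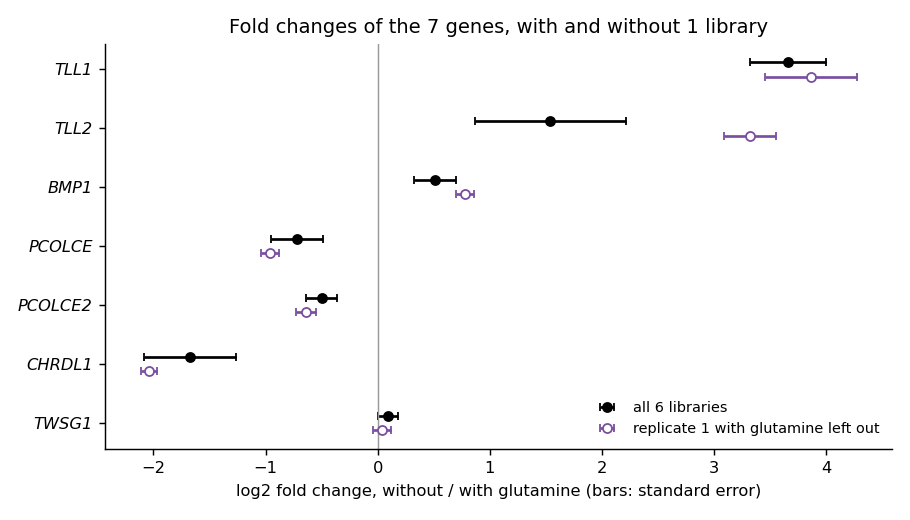
Log2 fold change without over with glutamine for each of the 7 genes, with standard errors, from edgeR with all 6 libraries (filled) and with replicate 1 with glutamine left out (open). Leaving out that library moves TLL2 from 1.54 to 3.32 and TLL1 from 3.66 to 3.86. TLL1 was chosen on the contrast with that library included, which favoured a small move.

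To set TLL1 beside the others, the position of replicate 1 with glutamine was placed on an axis for each gene in log2 CPM, where 0 is the mean of the other 2 libraries of its group and 1 the mean of the libraries without glutamine. TLL1 was at 0.12, near its own group. PCOLCE was at 0.92, TLL2 at 0.91, BMP1 at 0.89, CHRDL1 at 0.83 and PCOLCE2 at 0.72, all nearer the libraries without. TWSG1 has no usable position, as its ends lie only 0.04 apart. Among 3059 genes whose ends lie more than 1 apart, a set that holds TLL1, TLL2 and CHRDL1 of the 7, replicate 1 was nearer its own group in 577, or 18.9%. Among the 307 genes higher by more than 3 without glutamine on this axis, it was nearer its own group in 13, or 4.23%, and TLL1 was among them. TLL1 was chosen on its difference between the groups with replicate 1 with glutamine included, and this choice favoured a low position. The 3059 and 307 genes were taken on an axis that leaves that library out. The shares therefore do not show that its position is unusual, and it is a description with no test.

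**Figure D3:**
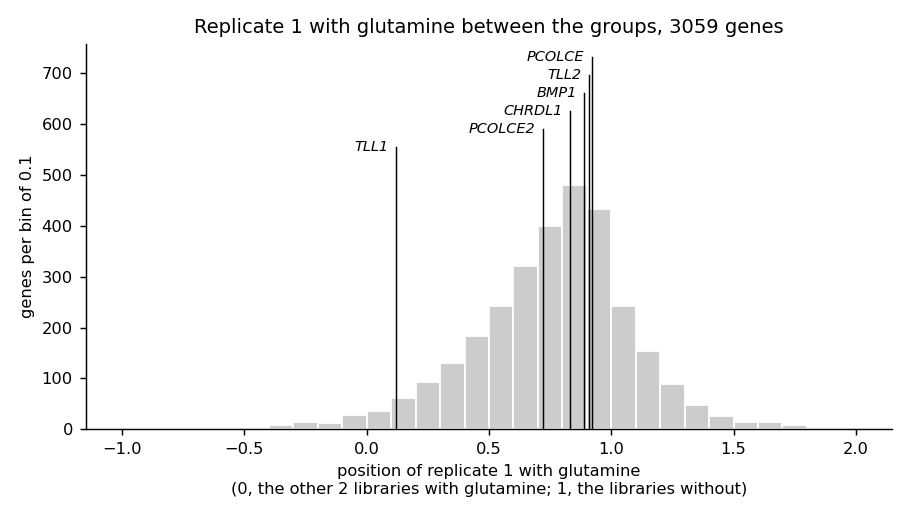
Position of replicate 1 with glutamine between the other 2 libraries of its group (0) and the libraries without glutamine (1), for 3059 genes more than 1 apart on the log2 scale (grey bars, in bins of 0.1), with lines for 6 of the 7 genes, of which BMP1, PCOLCE and PCOLCE2 are less than 1 apart and not in the bars. TLL1, chosen on a contrast that includes this library, lies at 0.12, in the low tail. The other 5 lie between 0.72 and 0.92.

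Levels were compared between genes as CPM per kilobase of merged exon. With glutamine the means ran from CHRDL1 at 64.3 through PCOLCE at 57.9, TWSG1 at 28.7, PCOLCE2 at 4.43, BMP1 at 4.42 and TLL2 at 0.115 to TLL1 at 0.0117. The range of CHRDL1 over its libraries, 25.8 to 85.9, overlapped those of PCOLCE and TWSG1, and the ranges of PCOLCE2 and BMP1 overlapped each other. TLL1, at 0.0102 to 0.0147, lay below the lowest library of TLL2, at 0.0312. Without glutamine the order was PCOLCE at 35.2, TWSG1 at 30.6, CHRDL1 at 20.2, BMP1 at 6.28, PCOLCE2 at 3.12, TLL2 at 0.338 and TLL1 at 0.152. There, only the ranges of PCOLCE and TWSG1 overlapped. TLL1 stayed the lowest of the 7 in both groups, at up to 0.174 per kilobase, and CHRDL1 was the highest with glutamine but not without.

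The other genes of the pathway were taken from lists of 42 genes by role, of which 39 could be tested. None of the 39 had an edgeR adjusted p under 0.05, against 0.00442% of all genes. At an unadjusted p under 0.05 there were 25, or 64.1%, 16 higher and 9 lower, against 29.7% of all genes. For 18, or 46.2%, the 2 groups had no overlap, against 34.2%. DESeq2 called 14 genes out of the 41 it gave a p-value, 9 higher and 5 lower. Over all genes it called 14%, 3041 of the 21759 it adjusted over, 7.54% higher and 6.44% lower. Those higher included FN1, A2M and COL11A1, and those lower included COL2A1 and MSTN. With replicate 1 with glutamine left out edgeR called 27, or 69.2%, 17 higher and 10 lower, against 41.3% of all genes. The median log2 fold change was 0.04, with genes on both sides of 0, and 0.07 with that library left out.

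Close relatives and partners of the proteases lay on both sides of 0 in log2 fold change, and edgeR called none with all libraries. DESeq2 with all libraries called FN1, A2M and POSTN, all higher (adjusted p 3.77e-06, 0.000166 and 0.0491). Of the other astacin proteases, the meprin gene MEP1A had no count in any library, which does not exclude a very low level, and MEP1B and ASTL had at most 13. The procollagen N-proteinases, which cut the opposite end of procollagen, were not called: the log2 fold changes were -0.15 (SE 0.07) for ADAMTS2, 0.04 (SE 0.09) for ADAMTS3 and -1.18 (SE 0.39) for ADAMTS14, which had only 18 to 67 counts in a library. Of these, ADAMTS14 was called with replicate 1 with glutamine left out (-1.49, edgeR adjusted p 0.00136). Fibronectin, FN1, which binds BMP1 and its substrates, had 224, 244 and 253 CPM with glutamine and 358, 484 and 537 CPM without, and the groups did not overlap. FN1 was not called by edgeR (log2 fold change 0.94, SE 0.15, edgeR adjusted p 0.068), and here replicate 1 with glutamine lay at the low end of its own group. With that library left out FN1 was called (0.89, edgeR adjusted p 0.000905). A2M, alpha-2-macroglobulin, a broad protease inhibitor that also traps BMP1, had 13.4, 18.5 and 21.7 CPM with glutamine and 27.4, 43.6 and 41.9 CPM without. Replicate 1 was again the lowest of its group, and A2M was not called by edgeR (log2 fold change 1.07, SE 0.23, edgeR adjusted p 0.0703) until that library was left out (0.91, edgeR adjusted p 0.00306). Periostin, POSTN, a matrix protein that binds BMP1, overlapped between groups at 136 to 222 CPM with and 213 to 318 CPM without. EdgeR called it only without replicate 1 with glutamine (0.81, edgeR adjusted p 0.00225).

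The procollagen substrates, 9 fibrillar chains and COL7A1 of the anchoring fibrils, split by chain. Of the 10 genes, 4 were higher without glutamine with no overlap between groups and 2 were lower, or 60.0% in all against 34.2% of all genes tested, and 4 overlapped. Their median log2 fold change was 0.36, and 0.21 with replicate 1 with glutamine left out, when edgeR called 5 higher and 2 lower. Those called were 70.0% of the 10, against 41.3% of all genes in that fit. COL11A1 had 67.1, 40.1 and 41.7 CPM with glutamine and 96.7, 104 and 107 CPM without, and every library without was higher (log2 fold change 1.05, SE 0.20, edgeR adjusted p 0.068, and 1.33 with an adjusted p of 1.31e-06 without replicate 1). COL5A1 had 212, 190 and 190 CPM with and 252, 285 and 307 CPM without, also with no overlap (0.51, SE 0.09, edgeR adjusted p 0.068, and 0.57 with an adjusted p of 0.00068 without replicate 1). COL3A1, the chain of type III collagen, had 597, 150 and 188 CPM with and 699, 1080 and 1280 CPM without, so replicate 1 lay between the rest of its group and the others. COL3A1 missed the threshold (log2 fold change 1.71, SE 0.53, edgeR adjusted p 0.099), and passed it at 2.59 (edgeR adjusted p 2.05e-05) with that library left out. In the opposite direction COL2A1, the cartilage collagen, had 632, 960 and 998 CPM with and 624, 543 and 513 CPM without (log2 fold change -0.62, SE 0.18, edgeR adjusted p 0.0859, and -0.80 with an adjusted p of 7.87e-05 without replicate 1). COL11A2 had 14.0, 18.6 and 15.2 CPM with and 11.2, 6.56 and 5.25 CPM without, with no overlap (log2 fold change -1.05, SE 0.27, edgeR adjusted p 0.0804, and -1.13 with an adjusted p of 0.00536 without replicate 1). COL1A1 and COL1A2, the chains of type I collagen, overlapped between groups, at log2 fold changes of 0.70 (SE 0.25) and -0.27 (SE 0.16). Without replicate 1 COL1A1 was at 1.06 and was called (edgeR adjusted p 7.17e-05), as it was by DESeq2 with all libraries (adjusted p 0.0271), and COL1A2 was called by neither.

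Among the other matrix substrates, LOX, the lysyl oxidase that crosslinks collagen, had 9.76, 45.3 and 44.4 CPM with glutamine and 13.1, 15.9 and 12.0 CPM without. Replicate 1 with glutamine was the lowest of all 6 libraries, so the groups overlapped (log2 fold change -1.27, SE 0.51, edgeR adjusted p 0.152). Without that library LOX was called (-1.71, edgeR adjusted p 2.72e-06). DCN, the small proteoglycan decorin, had 5.48, 1.02 and 1.17 CPM with and 7.96, 6.98 and 9.03 CPM without, with no overlap. It was not called (log2 fold change 1.64, SE 0.58, edgeR adjusted p 0.122) unless replicate 1 was left out (2.87, edgeR adjusted p 1.68e-06). BGN, HSPG2 and LOXL1 had log2 fold changes of -0.09, 0.04 and -0.10 and overlapped between groups. Of the 8 genes of this list tested, 2 were higher with no overlap, 0 lower and 6 overlapped, where the groups had no overlap for 34.2% of all genes. The 2 growth factors whose latent forms tolloid proteases can activate were both lower with no overlap, as were 16.9% of all genes tested. MSTN had 2.39, 3.98 and 3.81 CPM with and 1.33, 1.06 and 1.68 CPM without, and GDF11 had 243, 300 and 303 CPM with and 233, 197 and 214 CPM without. Both missed the threshold with all libraries, at edgeR adjusted p of 0.0689 and 0.0843, and passed it without replicate 1, at 0.000128 and 0.000979. That last fit called 19% of all genes lower.

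**Figure D4:**
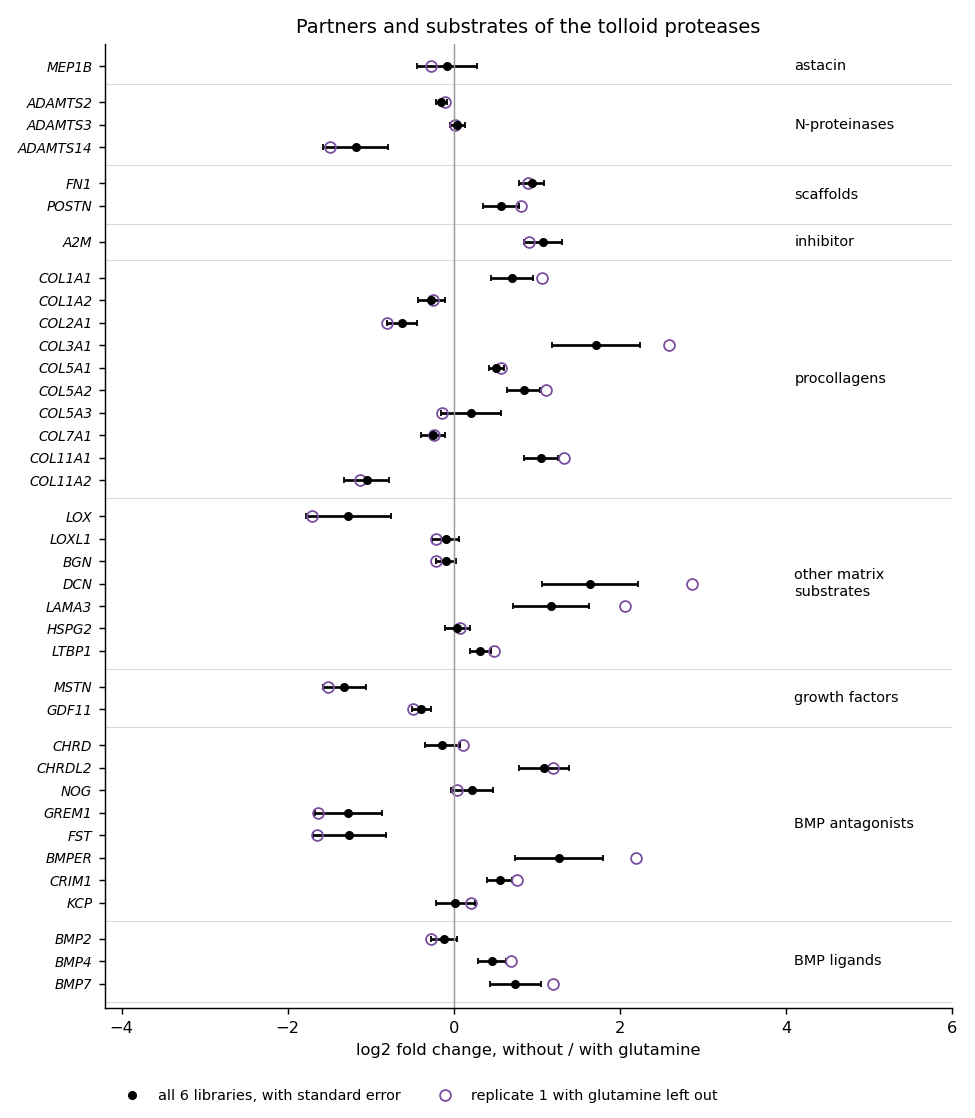
Log2 fold change without over with glutamine for the 39 pathway genes tested, 2 of them not drawn, grouped by role, with standard errors for all 6 libraries (filled) and the value with replicate 1 with glutamine left out (open). Procollagens and BMP antagonists lie on both sides of 0, with a median of 0.36 over the 10 procollagens and 0.02 over the 9 antagonists.

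The chordin side of the pathway also lay on both sides of 0. CHRD itself, the classical substrate, had 6.88, 4.87 and 3.88 CPM with glutamine and 4.49, 4.57 and 5.09 CPM without, overlapping between groups (log2 fold change -0.14, SE 0.21). Among the other antagonists of BMPs or activins, GREM1, gremlin, had 112, 342 and 357 CPM with and 137, 97.2 and 103 CPM without. FST, follistatin, had 60.7, 206 and 241 CPM with and 73.2, 73.2 and 66.1 CPM without. In both genes replicate 1 with glutamine lay within or below the libraries without, and those lay below replicates 2 and 3 with glutamine. Without replicate 1 both were called, GREM1 at a log2 fold change of -1.63 in place of -1.27 (edgeR adjusted p 9.18e-06 in place of 0.103) and FST at -1.65 in place of -1.26 (edgeR adjusted p 6.98e-07 in place of 0.121). BMPER and CRIM1 carry chordin-type repeats. BMPER overlapped through replicate 1, with 54.6, 14.9 and 15.0 CPM with and 46.7, 69.5 and 87.8 CPM without. Its log2 fold change went from 1.27 (SE 0.53, edgeR adjusted p 0.164) to 2.19 (edgeR adjusted p 5.63e-05) without that library. CRIM1 had 110, 80.0 and 72.9 CPM with and 126, 133 and 128 CPM without, and did not overlap (log2 fold change 0.55, SE 0.15, edgeR adjusted p 0.0827, and 0.76 with an adjusted p of 3.49e-05 without replicate 1). Of the ligands, BMP4 was higher with no overlap, at 110, 73.7 and 71.7 CPM with and 123, 113 and 115 CPM without, BMP7 overlapped at a log2 fold change of 0.74 (SE 0.31) and BMP2 overlapped at -0.12 (SE 0.16). Without replicate 1 all 3 ligands were called by edgeR: BMP4 at 0.69 (adjusted p 6.22e-05), BMP7 at 1.19 (adjusted p 0.000108) and BMP2 at -0.27 (adjusted p 0.0424). In that fit 41.3% of all genes were called, 22.3% higher and 19% lower. DESeq2 with all libraries called BMP7 (adjusted p 0.0484).

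The genes most like TLL1 were found by the root mean square distance between log2 CPM profiles over the 6 libraries, each centred on its own mean, among 22289 other genes with a mean of at least 10 counts. The nearest was ACTG2, the gamma actin of enteric smooth muscle, at 0.34. CBLN2, a secreted synaptic organiser, was at 0.36, SUCNR1, the succinate receptor, at 0.40, ANO4, of the anoctamin membrane protein family, at 0.42 and SULT1E1, an estrogen sulfotransferase, at 0.47. ACTG2 had 404, 157 and 220 counts with glutamine and 1420, 2985 and 3151 without. CBLN2 had 23, 8 and 8 counts with and 89, 195 and 191 without. SUCNR1 and SULT1E1 had at most 2 counts in a library with glutamine and 16 to 50 without. In all 5 genes replicate 1 with glutamine was the highest of its group yet below every library without, at positions of 0.27 to 0.33, where TLL1 was at 0.12. These 5 genes were chosen for likeness to TLL1 over the same 6 libraries. That choice favoured both the lack of overlap and the low positions, so they are a description only. For SUCNR1 and SULT1E1 the positions rest on at most 2 counts in a library with glutamine. With a prior count of 0.5 in place of 2, 3 of these 5 genes were again among the nearest.

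**Figure D5:**
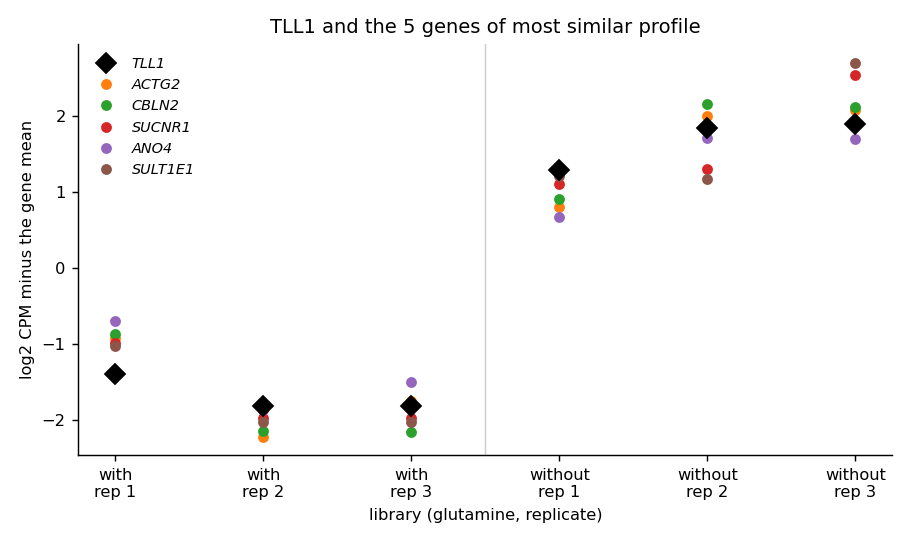
Log2 CPM of TLL1 (diamonds) and of the 5 genes with the most similar profile (circles), each minus its mean over the 6 libraries. The distances from TLL1 run from 0.34 for ACTG2 to 0.47 for SULT1E1, and all 6 genes are higher in every library without glutamine than in any with it. TLL1 was chosen on this contrast and the 5 genes for likeness to it, which favoured that pattern.

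The 6 markers of smooth muscle and fibroblasts summed to 469 to 550 CPM with glutamine and 522 to 823 CPM without, so the sums overlapped. Of the 6, ACTA2 and THY1 were higher with no overlap, or 33.3% against 34.2% of all genes tested, TAGLN, CNN1, PDGFRB and PDGFRA overlapped, and PDGFRB had a log2 fold change of -0.19. EdgeR with all libraries called 0 of the 6. Without replicate 1 with glutamine it called 5, 4 higher and 1 lower, or 83.3% against 41.3% of all genes in that fit. DESeq2 with all libraries called ACTA2, TAGLN and THY1, all higher (adjusted p 2.74e-18, 0.00456 and 0.00166). ACTA2, smooth muscle actin, had 13.4, 12.7 and 16.2 CPM with and 46.6, 101 and 94.4 CPM without. Markers of endothelium and endocardium, a site of TLL1 expression in the heart, summed to 55.7 to 100 CPM with and 55.0 to 85.1 CPM without, with 1 of 6 higher and 3 of 6 lower without overlap, where 17.3% of all genes were higher and 16.9% lower. The 5 heart muscle markers summed to 2.19 to 2.66 CPM with and 2.49 to 3.48 CPM without. Of the 5, MYL7 and ACTN2 were higher without overlap, or 50.0% of the 4 that could be tested, against 34.2% of all genes. Of the other 3, MYH6 overlapped between groups (log2 fold change -1.51, SE 0.50, edgeR adjusted p 0.111, and -1.87 with an adjusted p of 0.0015 without replicate 1), and NKX2-5 had at most 10 counts. No marker of these 3 lists was at 0 in all libraries. The part of any of these cell types in the TLL1 values was not tested.

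Around TLL1, the nearest gene with at least 10 counts in some library on the far side was SPOCK3, a testican proteoglycan, 629 kb beyond its end. SPOCK3 had 40.9, 20.0 and 19.6 CPM with glutamine and 37.9, 47.4 and 63.1 CPM without. Its groups overlapped through replicate 1 with glutamine (log2 fold change 0.88, SE 0.32, edgeR adjusted p 0.128). That library was low in TLL1, which was chosen on a contrast that includes it. SPOCK3 was called without that library (1.32, edgeR adjusted p 0.000326) and by DESeq2 with all libraries (adjusted p 0.0192). The nearest before it, the pseudogene NOL8P1 at 322 kb, had 4 to 10 counts. The 1 gene that lies within TLL1, RNA5SP170, had no count in any library, which does not exclude a very low level.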

How the data were processed

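RNA of 6 libraries was analysed, 3 per group, with groups and replicate numbers from the sample titles. The authors deposited raw counts per Ensembl gene and a table of normalized counts, treated as a signal because its values are not whole (DESeq2 by its name). The submitters' processing notes name cutadapt, Trim Galore, FastQC, STAR 2.5.2b, DESeq2 and GRCh38. The counting program, strand setting and treatment of multiple alignments are not given in the sources used here, so counts of overlapping genes are uncertain. Columns are headed day 0 and day 9, but per the labels every sample is from day 9. Each sample's description ties day 0 headings to glutamine and day 9 headings to its absence, and every direction rests on that.

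Raw counts were tested with edgeR 4.0.16 in R 4.3.3: filterByExpr, TMM, quasi-likelihood F test with legacy = FALSE, Benjamini-Hochberg adjustment over 22613 genes, threshold 0.05. The SE was taken as the absolute log2 fold change over the root of F, and CPM uses TMM-scaled library sizes. DESeq2 1.42.0 and limma 3.58.1 were alternatives, 17 settings in all. Symbols, positions and exon lengths came from GENCODE 29, which matched 56531 IDs. RefSeq held promoters of 6 of the 7 genes.

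Members, lists and tests were chosen with earlier results of these data known. Named are the members, list genes, the 5 profiles nearest TLL1, and genes beside or overlapping a member. Values given without a test were picked from the lists after they were seen. The values of 2 list genes are not reported here.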

Additional observations from a re-analysis of the deposited data

How the results depend on the processing

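The 6 members other than TLL1 gave 102 values over 17 alternatives: 94 kept their direction and their side of the threshold, 8 became called and 0 reversed. The count of members called was 0 and became 3 under DESeq2, and 0 to 5 when 1 library was left out in turn, with 5 without replicate 1 with glutamine and 0 in the other 5 fits. The count of pathway genes called was 0 and became 14 under DESeq2 and 0 to 27 with 1 library left out, with 27 without replicate 1 with glutamine and 1 without replicate 1 of the other group. The count over all genes was 1. It was 0 under legacy = TRUE, library size only, limma-voom and upper quartile scaling, 2 under limma-trend on the deposited normalized counts and 2 without a filter, 3041 under DESeq2, and 0 to 9573 with 1 library left out. The cause was not tested. No scaling moved the median log2 fold change of all genes beyond -0.043.

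With the replicate block 0 genes were called, 0 of them members. The deviations of same-numbered libraries from their group means had correlations of -0.021, 0 and 0.028, so no pairing by number was visible. Replicate 1 with glutamine stood apart from its group and weighs on these deviations, so they cannot show that the libraries were unpaired.

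The log2 fold change of TLL1 ran from 3.52 to 3.86 over the 17 alternatives. Its share of tolloid protease expression was higher without glutamine by 1.96 percentage points, by 1.97 on raw counts without length, and by 1.84 to 2.19 with 1 library left out. With 6 to 9 counts in a library with glutamine, the size of its difference is limited by counting error in that group.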

Other observations

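Markers of other cell types, summed for each library, gave the following ranges. The 4 kidney stroma markers summed to 250 to 313 CPM with glutamine and 269 to 361 CPM without. FOXD1 was lower and TCF21 higher without overlap between groups, or 50.0% of the 4, against 34.2% of all genes tested. Neither FOXD1 nor TCF21 was called by edgeR with all libraries, at adjusted p of 0.081 and 0.0864. Both were called without replicate 1 with glutamine, at 6.12e-06 and 2.26e-06. With TBX18, 75.0% of the 4 were called in that fit, against 41.3% of all genes. FOXD1, a marker of the kidney stroma, had 0.776, 2.89 and 2.97 CPM with glutamine and 0.593, 0.625 and 0.509 CPM without. TCF21, of stroma and podocytes, had 3.96, 0.64 and 0.395 CPM with glutamine and 7.17, 9.37 and 10.6 CPM without. The 5 cartilage and bone markers summed to 57.3 to 85.1 CPM with and 59.7 to 74.7 CPM without. Their median log2 fold change was 0.48, with SOX9 lower without overlap at -0.55, and ACAN, RUNX2, MATN1 and SP7 overlapping at 0.87, 0.89, 0.48 and -0.78. None of the 5 was called by edgeR with all libraries, and without replicate 1 with glutamine ACAN and RUNX2 were called higher and SOX9 lower. Those called were 60.0% of the 5, against 41.3% of all genes in that fit. The 5 neural markers summed to 5.6 to 6.4 CPM with and 5.57 to 6.74 CPM without, with PAX6 the largest part. TUBB3 was higher and NEUROG2 and PAX6 lower without overlap, or 60.0% of the 5, against 34.2% of all genes tested. Their log2 fold changes were 1.01, -3.21 and -0.35. EdgeR with all libraries called 0 of the 5, and DESeq2 called TUBB3 and NEUROG2 (adjusted p 0.0013 and 0.00378). SOX1 and ELAVL3 overlapped, and SOX1 had 65 counts in replicate 2 without glutamine and at most 12 in any other library.

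Within the endothelial list the genes parted: KDR, PECAM1 and CDH5 were lower and EMCN higher without overlap, while TEK and NFATC1 overlapped. Those without overlap were 66.7% of the list, against 34.2% of all genes tested. PECAM1 and CDH5 had log2 fold changes of -1.71 and -1.47. EdgeR with all libraries did not call them (adjusted p 0.0682 and 0.068), and DESeq2 did (adjusted p 0.000519 and 0.000111). KDR had 24.3, 82.3 and 69.8 CPM with glutamine and 13.5, 12.7 and 17.5 CPM without, whereas EMCN had 14.6, 1.81 and 1.83 CPM with and 22.8, 42.5 and 53.7 CPM without. With all libraries neither KDR nor EMCN passed the edgeR test, at log2 fold changes of -2.01 and 2.70 and adjusted p of 0.0695 and 0.0948. DESeq2 called both, at adjusted p of 0.00307 and 0.0486, as did edgeR without replicate 1 with glutamine, at log2 fold changes of -2.38 and 4.45 and adjusted p of 1.04e-06 and 1.43e-05.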
